A study of Mus musculus with 5 samples.

Results

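A set of 10 genes that mark dendritic cells was followed through cardiac macrophage libraries of infarcted mouse hearts: Flt3, Zbtb46, Batf3, Xcr1, Clec9a, Cd209a, Ccr7, Fscn1, Dpp4 and Siglech. They were chosen by gene symbol, and all 10 were found among the 21289 genes of the deposited count table. Every library came from wild-type male C57BL/6JGpt mice, and CD45+CD64+ cells were sorted from the heart on day 7 after myocardial infarction, so both groups share the infarct. The untreated group (n = 2 libraries) received no curcumol, and the curcumol group (n = 3 libraries) received this plant sesquiterpene by mouth at 30 mg/kg a day for 7 days. No age is given, and the labels do not say whether a library is 1 animal or a pool, so p-values measure the spread between these libraries, which may be technical. The labels name no other treatment or allele, and the comparison asks how the drug altered the transcriptome of macrophages after infarction.

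Dendritic cells are antigen-presenting leukocytes that grow from bone marrow progenitors under the cytokine FLT3L, carry antigen to lymph nodes and prime T cells. Conventional type 1 cells depend on the factors BATF3 and IRF8 and present antigen from dead cells, conventional type 2 cells depend more on IRF4, and plasmacytoid cells depend on TCF4 and secrete type I interferon. In the heart they are a small fraction of leukocytes beside macrophages. CD64, the Fc receptor encoded by Fcgr1, is widely used to separate macrophages from conventional dendritic cells, which carry little of it, while dendritic cells that arise from monocytes can carry it. In bulk RNA, fewer cells of a type and less RNA per cell cannot be told apart.

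The genes that define the labelled cell type had counts in every library, which is no measure of how pure the sort was. Levels are given as CPM, read counts scaled by library size and TMM factors. Fcgr1 had 349 and 373 CPM without the drug against 329, 299.9 and 249 CPM with it (adjusted p = 0.342 in edgeR's quasi-likelihood test), and none of 10 gate and macrophage markers was at 0 in any library. Library ranges were separate for 3 of these 10 that were lower with curcumol, Fcgr1 among them. They were also separate for 2 that were higher (all tested genes 14.9% lower and 29.5% higher). Total counts were close, from 39768705 to 43315822, but the number of genes with a count was not. It was 12243 and 12915 in the untreated libraries against 17078 to 18501 in the curcumol libraries. This bears on low genes such as most of these markers. For genes whose curcumol mean was 3 to 10 CPM, untreated replicates 1 and 2 lacked any count for 15.1% and 13.3%, and both lacked one for 4.99%. Among genes at 0.3 to 1 CPM, 46.8% had none in both. A curcumol library lacked a count for 0% of genes at 3 to 10 CPM in the other 2, and for 3.06% to 8.28% at 0.3 to 1 CPM. In the other direction, 0 genes with an untreated mean of 3 to 10 CPM were at 0 in all 3 curcumol libraries.

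**Figure D1:**
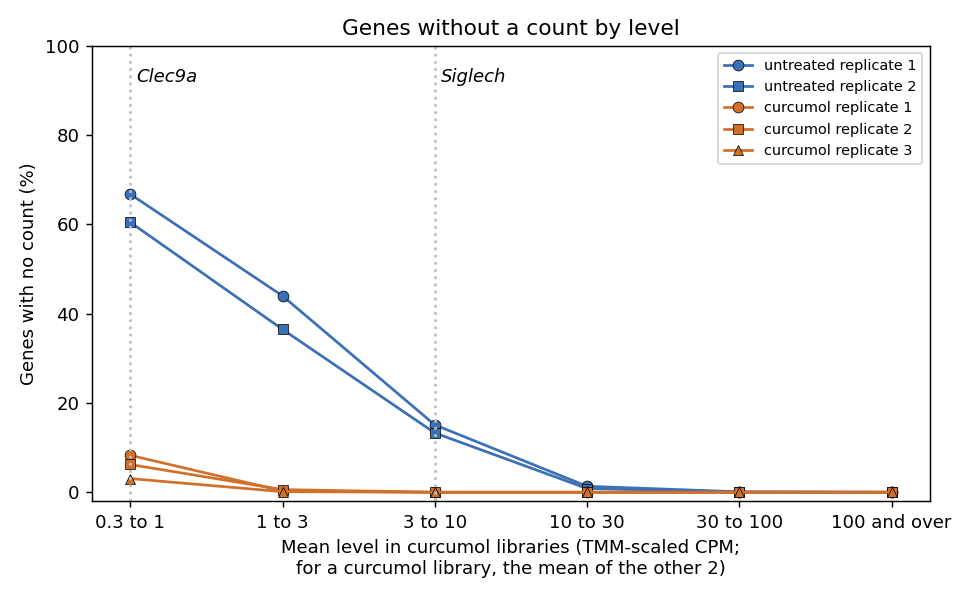
Share of genes with no count (vertical axis, percent) by mean level in the curcumol libraries (horizontal axis, TMM-scaled CPM), with 1 line per library; for a curcumol library the level is the mean of the other 2. At 3 to 10 CPM, the range of Siglech, 15.1% and 13.3% of genes lacked a count in the untreated libraries and 0% in the curcumol libraries; at 0.3 to 1 CPM, the range of Clec9a, the untreated shares were 66.8% and 60.5%.

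The plasmacytoid marker Siglech and the type 1 marker Clec9a were seen in every curcumol library and in neither untreated library. The libraries of Batf3, Cd209a and Ccr7, the markers with the highest mean levels for their transcript length, overlapped between the groups. No marker passed the test across all genes. In edgeR's quasi-likelihood test 0 of the 10 had an adjusted p under 0.05, where 0.207% of 14508 tested genes did (0.0689% higher and 0.138% lower). Before adjustment, p was under 0.05 for 3 markers, each higher with curcumol (Flt3, Clec9a and Siglech), against 18.1% of all tested genes higher and 6.51% lower. Library ranges were separate for 4 markers, again all higher (those 3 and Dpp4), against 44.4% of tested genes (29.5% higher, 14.9% lower). Log2 fold changes (curcumol minus untreated) were positive for 6 markers and negative for 4, with a median of 0.40 beside 0.15 over all tested genes. All 10 passed the filter on low counts, Clec9a and Siglech only through their curcumol libraries, so these counts describe the list and support no direction.

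**Figure D2:**
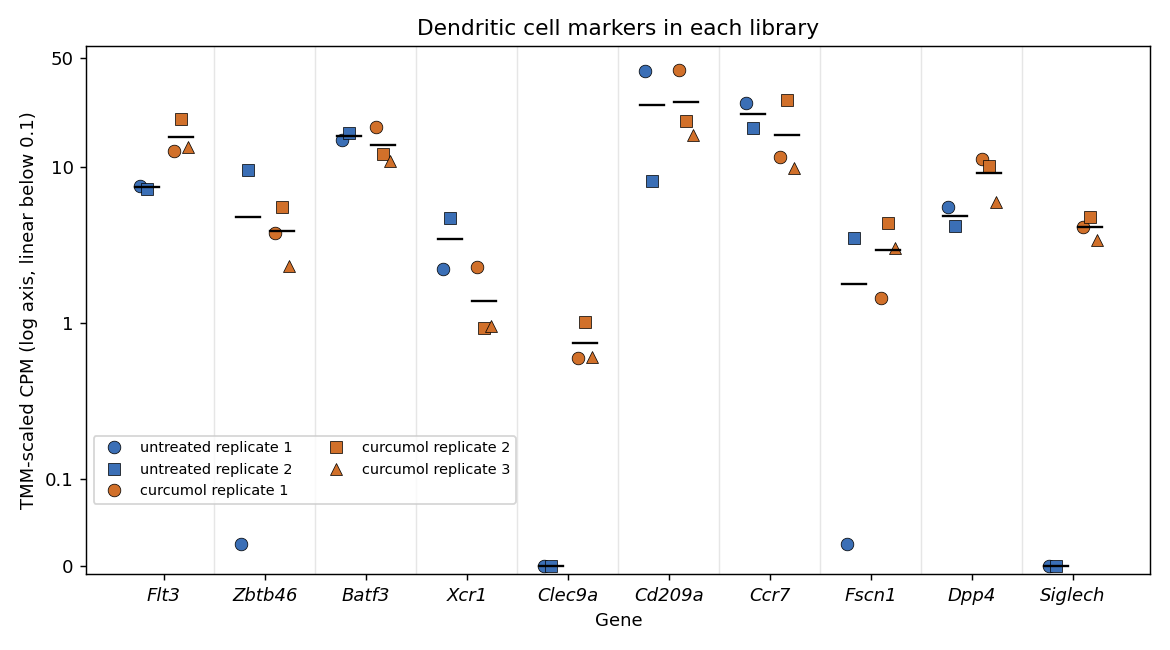
Level of each of the 10 markers (TMM-scaled CPM, log axis, linear below 0.1) in each of 2 untreated and 3 curcumol libraries; bars are group means. Clec9a and Siglech lie at 0 in both untreated libraries, and Zbtb46 and Fscn1 lie near 0 in untreated replicate 1 only.

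Compared per length of the longest coding transcript, the order of mean levels was led by the same 3 genes in each group. In the untreated libraries Batf3 came first at 19.7 CPM per kb, then Cd209a at 16.8, Ccr7 at 11.1 and Flt3 at 2.03 CPM per kb. The libraries of Cd209a overlap those of Batf3 and Ccr7, while every Flt3 value lies below these 3. Dpp4 (0.930), Zbtb46 (0.901), Xcr1 (0.782) and Fscn1 (0.664 CPM per kb) followed, and their libraries overlap, so the order among these 4 is not resolved. With curcumol Cd209a (17.6) and Batf3 (17.2 CPM per kb) were level within their spread, followed by Ccr7 (8.18) and Flt3 (4.26), whose libraries also overlap. Siglech (1.79), Dpp4 (1.74), Fscn1 (1.10) and Zbtb46 (0.735) came next, with Xcr1 (0.313) and Clec9a (0.226 CPM per kb) last, the libraries of Siglech and Dpp4 overlapping, as did those of Xcr1 and Clec9a. On the same scale Fcgr1 stood at 139 and 113 CPM per kb in the untreated and curcumol means, and Csf1r, the receptor of the macrophage growth factor CSF-1, at 310 and 428 CPM per kb. Every one of the 10 markers thus stood below both of these macrophage genes.

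Flt3 encodes the receptor tyrosine kinase through which FLT3L sustains dendritic cells and their progenitors. Its untreated levels were 7.63 and 7.21 CPM, and those with curcumol were 12.7, 20.5 and 13.6 CPM. All 3 curcumol libraries lay above both untreated ones, and the untreated pair differed only 1.06-fold. The mean was 2.10-fold higher with curcumol (7.42 ± 0.293 against 15.6 ± 4.26 CPM, SD, n = 2 and 3; log2 fold change 1.07 ± 0.40 SE, 95% interval 0.12 to 2.02). In edgeR this did not pass after adjustment over all genes (adjusted p = 0.157), while DESeq2, which called 12.5% of genes higher, gave 1.06 with an adjusted p of 0.0317. Over the 12 alternative settings the adjusted p of Flt3 ranged from 0.0317 to 0.619, with a log2 difference from 0.83 to 1.26.

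Zbtb46 encodes a zinc finger repressor that is used to tell conventional dendritic cells from macrophages. Its counts were 1 and 373 in the untreated libraries, that is 0.0253 and 9.54 CPM. The curcumol libraries held 3.80, 5.59 and 2.32 CPM, all between the 2 untreated values. The untreated replicates thus disagreed by more than any difference between groups (log2 fold change -0.29 ± 1.62, 95% interval -4.20 to 3.61, adjusted p = 0.940 in edgeR). Of 2301 genes at 3 to 10 CPM in untreated replicate 2, 329 (14.3%) had 0 or 1 count in untreated replicate 1, as Zbtb46 did. Without untreated replicate 2 the log2 difference of Zbtb46 was 7.13 (adjusted p = 0.00158, in a fit with 1 untreated library that is taken to vary like the curcumol libraries and that called 18.1% of genes higher), and without untreated replicate 1 it was -1.28.

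Of the type 1 genes, Batf3 is the most even across libraries. It encodes the AP-1 family factor needed for type 1 dendritic cells, and is also used by other leukocytes. Batf3 stood at 15.03 and 16.6 CPM untreated and at 18.2, 12.2 and 10.99 CPM with curcumol. The curcumol libraries lay on both sides of the untreated pair (log2 fold change -0.20 ± 0.35, 95% interval -1.05 to 0.66, adjusted p = 0.803 in edgeR).

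Xcr1 encodes the receptor for XCL1 and among leukocytes is the most restricted type 1 marker of the list. It was counted 88 and 185 times in the untreated libraries (2.23 and 4.73 CPM) and 96, 41 and 41 times with curcumol (2.29, 0.931 and 0.963 CPM). Curcumol replicate 1 lay just above untreated replicate 1, so the groups overlap. The mean was 2.49-fold higher without curcumol (3.48 ± 1.77 against 1.40 ± 0.778 CPM; log2 fold change -1.32 ± 0.85, 95% interval -3.37 to 0.74, adjusted p = 0.410 in edgeR). Xcr1 had a negative log2 difference in all 12 alternative settings, from -1.87 to -0.65, and passed in none (adjusted p from 0.0978 to 0.862).

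Clec9a encodes the C-type lectin DNGR-1, which binds actin exposed by dead cells and directs their antigens to presentation. It had no count in either untreated library, where 3 counts would be 0.0760 and 0.0767 CPM. The curcumol libraries held 25, 45 and 26 counts, that is 0.597, 1.02 and 0.610 CPM, with exact 95% Poisson intervals from 0.387 to 0.882 CPM at the lowest and 0.745 to 1.37 CPM at the highest, which cover counting error only. The mean of 0.743 ± 0.241 CPM is at least 9.73-fold higher than the floor of 3 counts per untreated library. Clec9a did not pass in edgeR (adjusted p = 0.0685). At this level (0.3 to 1 CPM with curcumol) 943 of 2013 genes, 46.8%, likewise had no count in both untreated libraries. Xcr1 and Clec9a, both markers of type 1 cells, thus stood in opposite order between the groups, and neither difference passed the test.

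Siglech encodes a sialic acid-binding lectin of plasmacytoid dendritic cells that some tissue macrophages carry too. It also had no count in both untreated libraries. The curcumol libraries held 173, 210 and 146 counts (4.13, 4.77 and 3.43 CPM), a spread of 1.39-fold, the smallest among the 10 markers with curcumol. The mean of 4.11 ± 0.670 CPM is at least 53.8-fold higher than the floor of 3 counts per untreated library. Siglech had the smallest p of the list and did not pass in edgeR (unadjusted p = 0.000502, adjusted p = 0.0637). Of 2405 genes at 3 to 10 CPM with curcumol, 120 (4.99%) had no count in both untreated libraries. That share is a description of all genes and no test of Siglech.

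The calls for Clec9a and Siglech rested on the tool and on single untreated libraries. DESeq2 (12.5% of genes called higher) and limma-voom (9.72%) called both, with adjusted p of 0.00524 and 0.0200 for Clec9a and 7.89e-08 and 0.0137 for Siglech. EdgeR without a filter on low counts (1.52% called higher) called Siglech alone (adjusted p = 0.0259). Both also passed without untreated replicate 1 (adjusted p = 0.0391 for Clec9a and 0.00108 for Siglech), where 14.8% of genes were called higher, and without untreated replicate 2 (0.0320 and 0.000474), where 18.1% were. In the other alternatives no marker passed, where the share of genes called higher was 0.0689% with RLE factors, 0.0276% with total counts, 0.467% with a CPM of at least 1 in 2 samples (a filter that drops Clec9a), 0.103% with a replicate block, and 0.00715%, 0% and 0.029% without curcumol replicates 1, 2 and 3. Over the alternatives that tested them, the adjusted p reached 0.675 for Clec9a and 0.378 for Siglech.

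The sequences before the start sites of the 4 markers whose libraries did not overlap between groups are shown next. This is only a rule for what to show, since the libraries of 44.4% of all tested genes likewise did not overlap. Each is the 250 bases before the RefSeq gene start on GRCm38.p6, read on the gene's own strand: Clec9a at chr6:129408612-129408861 (+ strand), Siglech at chr7:55767934-55768183 (+ strand), Flt3 at chr5:147400490-147400739 (- strand) and Dpp4 at chr2:62412232-62412481 (- strand). These positions are those of RefSeq, since the authors' build is unknown here. Capitals mark matches, on either strand, to the E-box letters CAGNTG (bound by E proteins such as TCF4), the letters GGAAGT (a core bound by PU.1 and other ETS factors) and the interferon-stimulated response element.
Clec9a: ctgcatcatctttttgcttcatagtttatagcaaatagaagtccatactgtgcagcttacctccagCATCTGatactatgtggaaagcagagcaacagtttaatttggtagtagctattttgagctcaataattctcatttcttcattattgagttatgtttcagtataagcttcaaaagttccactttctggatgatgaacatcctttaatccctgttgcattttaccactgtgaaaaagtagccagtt
Siglech: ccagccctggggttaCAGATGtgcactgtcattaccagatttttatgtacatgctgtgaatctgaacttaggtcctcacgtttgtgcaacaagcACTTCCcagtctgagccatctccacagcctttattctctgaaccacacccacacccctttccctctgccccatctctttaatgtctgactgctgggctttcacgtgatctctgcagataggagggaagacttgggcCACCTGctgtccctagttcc
Flt3: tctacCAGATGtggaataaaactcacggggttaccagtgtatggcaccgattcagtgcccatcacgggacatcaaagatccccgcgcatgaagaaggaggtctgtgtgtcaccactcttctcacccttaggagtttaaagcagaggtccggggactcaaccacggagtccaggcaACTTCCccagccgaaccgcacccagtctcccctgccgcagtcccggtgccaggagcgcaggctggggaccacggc
Dpp4: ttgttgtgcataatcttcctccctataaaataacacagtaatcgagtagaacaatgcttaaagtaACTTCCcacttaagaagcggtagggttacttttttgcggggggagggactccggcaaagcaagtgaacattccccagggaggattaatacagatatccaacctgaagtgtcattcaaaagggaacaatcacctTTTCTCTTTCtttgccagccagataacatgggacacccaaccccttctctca

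In these windows Siglech held 2 E-box matches, from 235 to 230 and from 20 to 15 bases before the start, and Clec9a and Flt3 held 1 each. GGAAGT matched once in each of Siglech, Flt3 and Dpp4 and was not among the letters of the Clec9a window. The interferon-stimulated response element matched in Dpp4 alone among the 4, from 52 to 43 bases before the start. Over 32851 RefSeq promoters, 44.8% held an E-box match, 19.7% GGAAGT and 2.98% the interferon-stimulated response element in the same window, so the first match is common. GC content of the windows was 35.6% for Clec9a, 50.8% for Siglech, 59.2% for Flt3 and 43.6% for Dpp4. Of the 9 markers with a promoter entry, 5 held the E-box letters and 6 GGAAGT. These matches are letters and no measure of binding.

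Cd209a encodes a DC-SIGN type lectin of type 2 and monocyte-derived dendritic cells, and it had the highest CPM of the 10 in 3 of 5 libraries. The untreated libraries held 41.7 and 8.13 CPM, against 42.2, 19.8 and 16.2 CPM with curcumol. The 2 replicates numbered 1 were highest and the untreated replicate 2 was lowest, so the untreated pair alone spans a 5.13-fold range. The group difference was 0.06 ± 0.72 on the log2 scale (95% interval -1.68 to 1.81, adjusted p = 0.971 in edgeR). It changed sign with the libraries used, -0.66 without untreated replicate 2 and -0.46 without curcumol replicate 1, against 1.68 without untreated replicate 1. Cd209a has close relatives whose reads may be shared. The 6 relatives were uneven. Cd209b, Cd209d and Cd209g had no untreated count, and their curcumol means of 1.92, 2.145 and 2.29 CPM rested largely on curcumol replicate 1. In curcumol replicates 1, 2 and 3 Cd209b stood at 4.80, 0.522 and 0.446 CPM. Cd209d stood at 5.73, 0.0454 and 0.657 CPM, and Cd209g at 5.23, 1.36 and 0.282 CPM. No count in both untreated libraries was also found for 22.7% of all genes with a curcumol mean of 1 to 3 CPM. Of the untreated libraries, Cd209c (0.153 CPM) and Cd209f (4.25 CPM) had counts in replicate 2 alone. Their curcumol means were 0.337 and 9.81 CPM. Cd209e had an untreated count in replicate 1 alone (3.14 CPM, against 0.836, 0 and 0.0939 CPM with curcumol). In each of the 6, curcumol replicate 1 was the highest of the curcumol libraries, as for Cd209a.

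Ccr7 and Fscn1 mark mature dendritic cells on their way to lymph nodes: Ccr7 encodes the receptor for CCL19 and CCL21, and Fscn1 the actin-bundling protein fascin. T cells also carry CCR7, and stromal cells also make fascin. Ccr7 stood at 25.9 and 17.95 CPM untreated and at 11.7, 27.0 and 9.88 CPM with curcumol. Curcumol replicate 2 was the highest library and the other two curcumol libraries were the lowest (log2 fold change -0.44 ± 0.50, 95% interval -1.64 to 0.76, adjusted p = 0.664 in edgeR). Fscn1 was counted 1 and 138 times untreated (0.0253 and 3.53 CPM) and stood at 1.46, 4.38 and 3.03 CPM with curcumol. As with Zbtb46, untreated replicate 1 alone was near 0. Curcumol replicate 2 was the highest of the 3 curcumol libraries for Ccr7, Fscn1, Zbtb46, Flt3, Clec9a and Siglech. For Batf3, Xcr1, Cd209a and Dpp4 it was not. The log2 difference of Fscn1 was 0.73 ± 1.58 (adjusted p = 0.841 in edgeR), 6.72 without untreated replicate 2 (adjusted p = 0.00389, with 18.1% of genes called higher) and -0.25 without untreated replicate 1.

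Dpp4 encodes the membrane peptidase CD26, which is used for type 1 and migratory dendritic cells and is also made by T cells and fibroblasts. It stood at 5.57 and 4.22 CPM untreated and at 11.4, 10.2 and 6.01 CPM with curcumol. All 3 curcumol libraries lay above both untreated ones, curcumol replicate 3 by little. The mean was 1.88-fold higher with curcumol (4.90 ± 0.958 against 9.18 ± 2.81 CPM; log2 fold change 0.91 ± 0.53, 95% interval -0.38 to 2.19, adjusted p = 0.360 in edgeR), and no alternative run called it (adjusted p from 0.131 to 0.727).

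**Figure D3:**
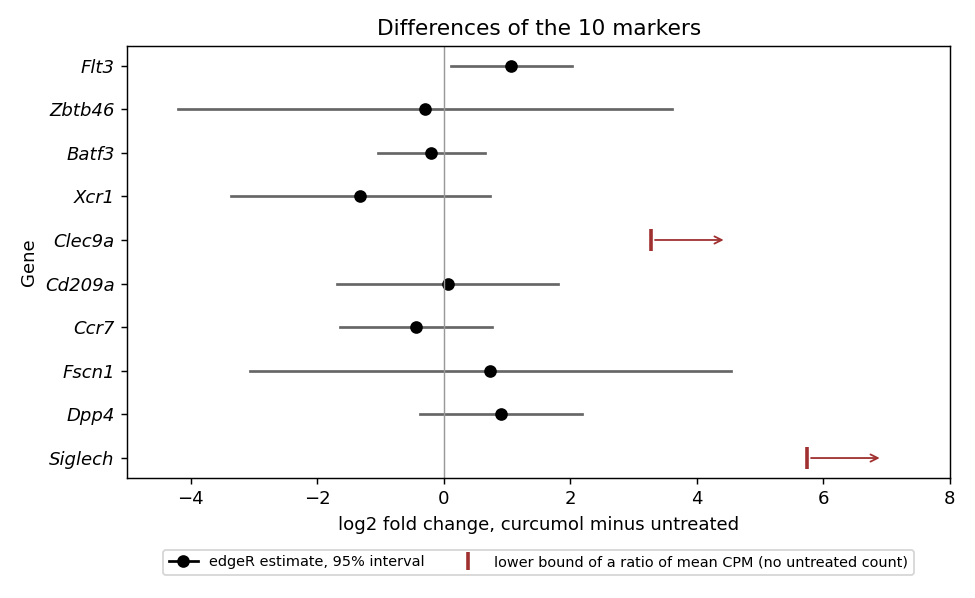
Log2 fold change of each of the 10 markers (curcumol minus untreated). Points with lines are edgeR estimates with 95% intervals, and arrows start at the lower bound for the 2 markers without an untreated count. This bound is the curcumol mean over a floor of 3 counts per untreated library. It does not allow for the spread between untreated libraries. The intervals of Zbtb46 (-4.20 to 3.61) and Fscn1 (-3.07 to 4.54) are the widest of the 8 drawn, that of Flt3 (0.12 to 2.02) lies above 0 before adjustment, and the bounds of Clec9a and Siglech lie at 3.28 and 5.75.

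Transcripts of some other cells moved with the treatment groups in the same libraries, while T and NK and mesothelial sums overlapped. The part of other cells in the marker values was not tested. Over all tested genes, 0.0689% rose at an adjusted p under 0.05 in edgeR and 18.1% were higher at an unadjusted p under 0.05. No count in both untreated libraries was found for 10.9%. These shares are the background of the counts given here. Summed over 9 neutrophil markers the level was 273 and 297 CPM untreated and 1383 to 3255 CPM with curcumol, and 2 of these, Camp and Ngp, rose. Camp had no untreated count and Ngp had 4 and 2, so both passed the filter on low counts only through their curcumol libraries. Summed over 9 fibroblast markers it was 24.9 and 37.9 CPM against 140 to 322 CPM, and Dcn and Lum rose, while Pdgfra, Lum and Cd248 were at 0 in both untreated libraries. Lum, like Camp and Ngp, thus passed the filter only through its curcumol libraries, whereas Dcn had 543 and 477 untreated counts. Of 9 B and plasma cell markers (38.9 and 54.7 against 87.0 to 255 CPM) none passed in edgeR, 6 had an unadjusted p under 0.05 and all were higher, and Pax5, Blk and Mzb1 were at 0 in both untreated libraries. Of 9 endothelial markers (25.3 and 33.5 against 57.8 to 106 CPM) none of 8 tested passed, 6 were higher at an unadjusted p under 0.05, and 5 were at 0 in both untreated libraries. T and NK cell markers overlapped between groups (104 and 115 against 81.9 to 160 CPM), and 0 of 11 tested passed, with 1 higher at an unadjusted p under 0.05. Mesothelial markers summed to 2.31 and 0 CPM untreated and 0.358 to 1.93 CPM with curcumol, and cardiomyocyte markers to 12.2 and 47.2 against 64.9 to 82.0 CPM; 0 of 3 and 0 of 5 tested passed, with 2 and 1 higher at an unadjusted p under 0.05. The 10 dendritic cell markers summed to 98.1 and 71.9 CPM untreated and to 67.0 to 108.5 CPM with curcumol, a range that holds the untreated values.

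**Figure D4:**
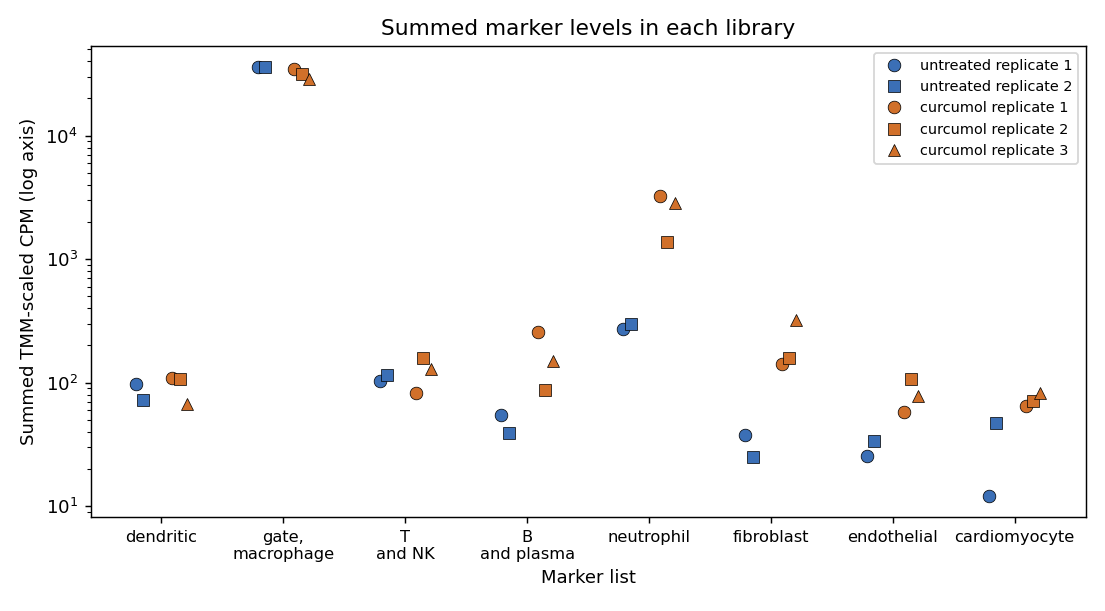
Summed level of each marker list (TMM-scaled CPM, log axis) in each library, by group and replicate. The dendritic sums overlap between groups (71.9 and 98.1 against 67.0 to 108.5 CPM), as do the T and NK sums, whereas the neutrophil, fibroblast, B and plasma, endothelial and cardiomyocyte sums are higher in all 3 curcumol libraries.

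Beyond the 10 markers, 74 further genes of dendritic cell biology were in the table, in 6 lists, and 67 were tested. Only Cd83 passed in edgeR (1 lower and 0 higher, against 0.138% and 0.0689% of all genes), with 18 higher and 7 lower at an unadjusted p under 0.05, where 18.1% of all tested genes were higher and 6.51% lower. The counts at this unadjusted p in the lists that follow have those same shares as their background, and with so few genes a list nothing is read from them. Their median log2 fold change was 0.23, beside 0.15 over all tested genes. DESeq2 gave a p for all 74 further genes and called 19 of them, 13 higher and 6 lower. Its background was 12.5% higher and 4.37% lower, over the 15767 genes to which it gave an adjusted p.

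Of the genes shared by conventional dendritic cells, 0 of 9 tested passed in edgeR, with 3 higher and 2 lower at an unadjusted p under 0.05 (all genes 18.1% and 6.51%) and a median of 1.13, and many of these genes are used by macrophages as well. Ciita, the master regulator of MHC class II genes, stood at 6.54 and 2.33 CPM untreated and at 39.3, 53.1 and 27.9 CPM with curcumol (log2 difference 3.18 ± 0.56, adjusted p = 0.0644 in edgeR). Nfil3, a factor needed early in the type 1 lineage, stood at 222 and 213 against 93.7, 56.0 and 82.1 CPM (-1.50 ± 0.24, adjusted p = 0.0637). The stem cell factor receptor Kit, also a mast cell marker, had no count untreated and 1.51, 4.18 and 0.986 CPM with curcumol. The lineage factor Irf8, which macrophages share, was even at 394 and 464 against 422, 378 and 404 CPM, and its log2 difference of -0.10 turned to 0.09 with total counts as the scaling. Irf4 was counted 201 and 6 times untreated (5.09 and 0.153 CPM) and stood at 5.64, 9.67 and 2.79 CPM with curcumol, so here untreated replicate 2 was the low library.

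Of 12 tested type 1 genes 0 passed in edgeR, 4 were higher and 1 lower at an unadjusted p under 0.05 (all genes 18.1% and 6.51%), and the median was 0.02. Rab7b, a small GTPase of late endosomes, stood at 562 and 518 against 337, 314 and 318 CPM (-0.74 ± 0.14, adjusted p = 0.0651). Ly75, the endocytic receptor DEC-205, and Gcsam had no count untreated and means of 1.05 ± 0.254 and 1.06 ± 0.295 CPM with curcumol, at least 13.8-fold above the floor of 3 counts per library for each. Of all 1622 genes at 1 to 3 CPM with curcumol, 368 (22.7%) likewise had no count in both untreated libraries. Of 11 type 2 genes 5 were higher and 1 lower at an unadjusted p under 0.05 (all genes 18.1% and 6.51%) and 0 passed (median 0.54). Tnip3, an NF-kB inhibitor, stood at 51.4 and 47.0 against 17.6, 14.0 and 13.7 CPM (-1.70 ± 0.23, adjusted p = 0.0555), and the receptor Notch2 at 29.4 and 46.6 against 59.5, 99.8 and 70.7 CPM (adjusted p = 0.105). Esam, an adhesion molecule that endothelial cells make too, had no count untreated and 4.09, 8.40 and 5.73 CPM with curcumol (at least 79.5-fold above that floor, adjusted p = 0.0597 in edgeR).

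Among 19 tested genes of mature migratory cells Cd83 fell and none rose, with 3 higher and 2 lower at an unadjusted p under 0.05 (all genes 18.1% and 6.51%) and a median of 0.06. Cd83, an activation marker that macrophages carry as well, stood at 1108 and 1272 CPM untreated and at 179, 167 and 176 CPM with curcumol (log2 difference -2.77 ± 0.15, adjusted p = 0.0126 in edgeR). Its call ended without curcumol replicate 1 (adjusted p = 0.0954) or 2 (0.0959), at log2 differences of -2.79 and -2.74. Cd200, an inhibitory ligand, stood at 0.380 and 0.537 against 4.37, 6.92 and 4.55 CPM (3.52 ± 0.80, adjusted p = 0.0696). Nudt17 had no count untreated and a mean of 1.27 ± 0.342 CPM with curcumol. The levels of Ccr7 and Cd83 differed in how the libraries fell: for Cd83 the groups did not overlap, for Ccr7 they did.

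Of 11 tested plasmacytoid genes 0 passed in edgeR and 1 was higher at an unadjusted p under 0.05 (all genes 18.1%), with a median of 0.38. That gene, Cd300c, had no count untreated, as Siglech, and 0.382, 0.341 and 0.329 CPM with curcumol. It passed the filter on low counts only through its curcumol libraries. At its level (0.3 to 1 CPM with curcumol) 46.8% of all genes had no count in both untreated libraries, against 4.99% at that of Siglech (3 to 10 CPM). Ccr9, a gut-homing receptor of these cells, stood at 0 and 0.179 against 0.788, 0.409 and 0.751 CPM (adjusted p = 0.340), and Cox6a2 at 1.52 and 3.89 against 4.01, 5.04 and 7.98 CPM (adjusted p = 0.444). These were the 3 of 11 genes that lay lower in both untreated libraries than in any curcumol library, against 29.5% of all tested genes, and the groups overlapped for the other 8. Among those 8 was the lineage factor Tcf4 at 120 and 103 against 143, 119 and 111 CPM.

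The ligands of the listed receptors were low or level. Flt3l stood at 8.59 and 18.6 CPM untreated and at 11.3, 10.9 and 12.3 CPM with curcumol (log2 difference -0.24 ± 0.43, adjusted p = 0.799 in edgeR), turning to 0.44 without untreated replicate 2. Xcl1 stood at 1.42 and 0 against 0.741, 1.27 and 0.282 CPM (adjusted p = 0.981), and Ccl19 had a count only in untreated replicate 2 (0.384 CPM) and curcumol replicate 2 (0.0681 CPM). Ccl21a had 0 counts untreated and 18, 2 and 24 counts with curcumol (adjusted p = 0.125). Of the GM-CSF receptor subunits, Csf2ra stood at 707 and 627 against 464, 375 and 343 CPM (-0.76 ± 0.18, adjusted p = 0.0730) and Csf2rb at 85.2 and 79.4 against 118, 145 and 124 CPM (0.65 ± 0.17, adjusted p = 0.0787), so the subunits of this receptor lay in opposite directions with groups that did not overlap.

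**Figure D5:**
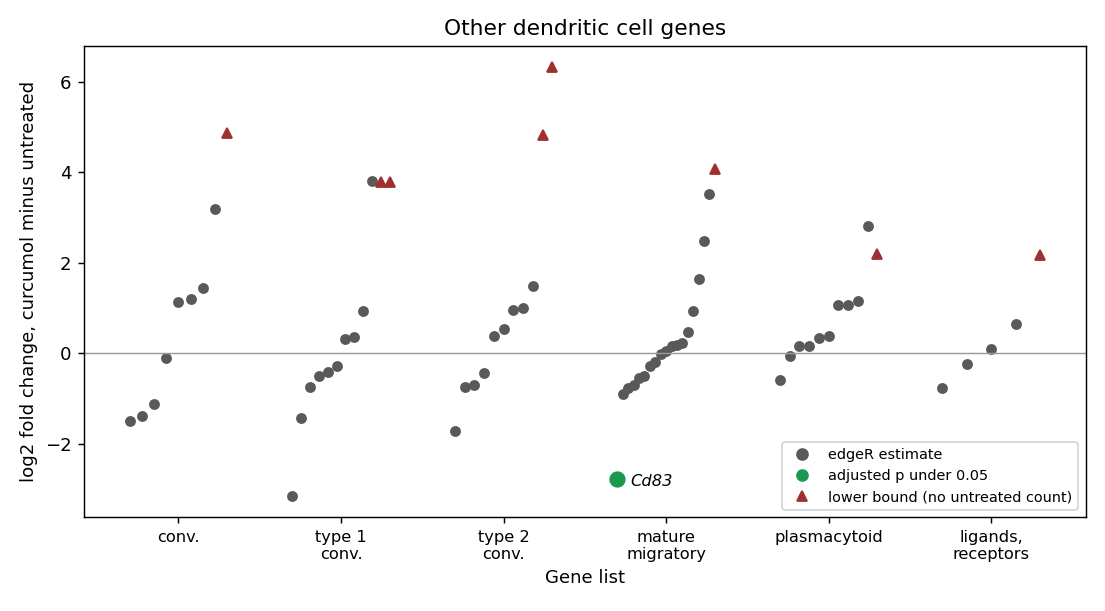
Log2 fold change (curcumol minus untreated) of the tested genes in 6 further dendritic cell lists. Grey points are edgeR estimates, and the green point passed an adjusted p of 0.05. Triangles are lower bounds for genes without an untreated count, set against a floor of 3 counts per untreated library, without allowance for the spread between these. Only Cd83, at -2.77, passed, and each list spreads over both sides of 0.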

How the data were processed

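The authors deposited gene-level read counts as whole numbers without normalization, 1 column per library, and columns were tied to samples by title. HISAT2, Bowtie2, fastp and HTSeq are named, without versions or roles, per the submitters' processing notes. The library kit is given 2 ways, so strandedness is unsettled and antisense overlaps cannot be told apart. The annotation release is not given in the sources used here, nor the build. Curcumol was compared with no treatment over 14508 genes in edgeR 4.0.16 (R 4.3.3): scaling by TMM, genes kept by filterByExpr at a minimum count of 10, group alone in the quasi-likelihood model (3 residual degrees of freedom), two-sided tests, Benjamini-Hochberg adjustment over all tested genes and a threshold of 0.05. CPM are counts over library size times TMM factor, SEs derive from the fold change and F statistic, and per-length values use GENCODE M21 transcripts. Exact permutation of 2 against 3 libraries reaches p = 0.1 at best and was left out. Replicates did not agree within sampling noise (chi-square per gene 92.1 to 144). Log2 CPM correlated at 0.851 in the untreated pair and at 0.955 to 0.959 in the curcumol pairs. The fit was also run on simulated counts that varied less between replicates than these libraries do, which is no check of low genes here. The markers and lists were chosen with earlier results of these data known. Named were all 10 markers, the genes past the threshold or with the 3 smallest p of each dendritic list, the ligands, Irf8 and Irf4. Of other cells the rule took the 2 most abundant markers per list; lists are given here by sums, and the genes past the threshold or at 0, the Cd209 relatives, Fcgr1, Csf1r and Tcf4 were named after their values were seen. Trac and Klk1 were not found by symbol. Alternatives were DESeq2 1.42.0, RLE factors, total counts, limma-voom (limma 3.58.1), no filter, a filter at 1 CPM in 2 samples, a replicate block and leaving out each library.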

Additional observations from a re-analysis of the deposited data

How the results depend on the processing

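Genes past the threshold were 30 in all with TMM, and 2653 with DESeq2, 10 with total counts, 416 without a filter, 98 with a CPM of at least 1 in 2 samples, 1661 with limma-voom and 0 to 3531 when 1 library was left out (1, 0 and 19 without curcumol replicates 1, 2 and 3, 2950 and 3531 without untreated replicates 1 and 2). Of the 10 markers 0 passed in edgeR, 3 with DESeq2, 1 without a filter, 2 with limma-voom and 0 to 4 when 1 library was left out. Of the further dendritic cell genes 1 passed in edgeR, 19 with DESeq2, 5 without a filter, 3 with a CPM of at least 1, 14 with limma-voom, 3 with the replicate block and 0 to 25 when 1 library was left out. Without curcumol replicate 2, 2383 genes had an unadjusted p under 0.05. Fits without 1 untreated library lose the spread between the 2, and the other causes were not tested. The log2 difference changed sign for Zbtb46 with limma-voom (2.62) and with the block (2.74), for Irf8 with total counts (0.0892), and for the mesothelial marker Upk3b with limma-voom (0.961) and the block (0.618). Leaving out 1 library changed its sign for 8 genes, with ranges from -1.28 to 7.13 for Zbtb46, -0.655 to 1.68 for Cd209a, -0.252 to 6.72 for Fscn1, -0.692 to 0.441 for Flt3l, -0.87 to 8.01 for Xcl1, -0.206 to 0.0484 for Irf8, -2.52 to 7.05 for Upk3b and -0.0143 to 1.85 for the cardiomyocyte gene Actc1. Total counts moved the median of all genes from 0.15 to 0.34. Deviations of same-numbered libraries from their group means correlated at 0.0245 and -0.0268. The deviations of 2 untreated libraries mirror each other, so these values cannot settle whether replicate numbers pair the samples. With the replicate block 45 genes and 0 markers passed.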
